A study of Mus musculus with 18 samples.

Results

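The direct comparison of both inflammatory pain models in the BNST, the bed nucleus that accompanies the stria terminalis, rests on 6 of the 18 libraries of the series, 3 from mice injected with formalin and 3 from mice injected with complete Freund's adjuvant (CFA), and covers every gene of the deposited count table. The BNST is a set of small nuclei of the extended amygdala, largely built of GABAergic neurons, that connects the amygdala with the hypothalamus and brainstem and is known for its part in anxiety and in responses to stress. It borders the striatum, the lateral ventricle with its choroid plexus, and the anterior hypothalamus and thalamus. Formalin in the paw causes a short-lived inflammatory pain, whereas CFA, an oil emulsion with mycobacterial material, causes a swelling and hypersensitivity that last for days.

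All animals were adult male wild-type C57BL/6 mice, 6 to 8 weeks old. The formalin group received 10 μL of 1% formalin into the plantar hind paw and its tissue was taken at 24 h, and the CFA group received 10 μL of 50% CFA and its tissue was taken at 72 h. The control mice had neither injection, and no group with a vehicle injection was among the samples, so the agent and the hours until collection change together between formalin and CFA and cannot be told apart. Each library came from the dissected BNST of 1 brain, and the medial prefrontal cortex (mPFC) of the same brains was sequenced in the same design.

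The formalin libraries held 15943983 to 21774670 counts, the CFA libraries 17660487 to 20547436 and the control libraries 14781315 to 16958300. Levels are given in CPM, the count of a gene relative to the library total after scaling by TMM factors. Differences are log2 fold changes, formalin minus CFA, from an edgeR quasi-likelihood model of the 9 BNST libraries, with their standard errors (SE). A gene is called where its Benjamini-Hochberg adjusted p over all tested genes is under 0.05 and its absolute log2 fold change is above 0.5. Gene lists and their members were chosen with earlier results of these data known. The share of a list that was called is therefore a description and not a test of an excess over all genes.

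GABAergic markers, which define most BNST neurons, were present in all libraries. Gad1, which encodes a GABA-synthesizing enzyme, was at 476, 518 and 483 CPM after formalin and at 665, 503 and 542 CPM after CFA. The libraries also held RNA of neighbouring structures in unequal amounts. The 12 choroid plexus markers summed to 3311, 9945 and 6344 CPM in the formalin libraries, against 284, 19115 and 236 CPM in the CFA libraries and 67.1 to 855 CPM in the controls. CFA replicate 2 thus stood apart from its group. It lay at 58.7 on the first principal component, where the other CFA libraries lay at −18.1 and −28.3 and the formalin libraries at 18.2 to 38.7. The control libraries lay at −36.9 to −29.1, on the side of CFA replicates 1 and 3. The nearest library to CFA replicate 2 was formalin replicate 3. Formalin replicate 1 held more RNA of cortical pyramidal neurons than any other library, 1059 CPM summed over 12 markers against 411 and 423 CPM in the other formalin libraries and 405 to 425 CPM in the CFA libraries. By the column names of the study's own tables, formalin replicate 1 was also sequenced in lane 3 and control replicates 1 and 2 in lane 1, while the other BNST libraries were in lane 2. In bulk tissue, fewer cells of a type and less RNA per cell cannot be told apart.

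**Figure D1:**
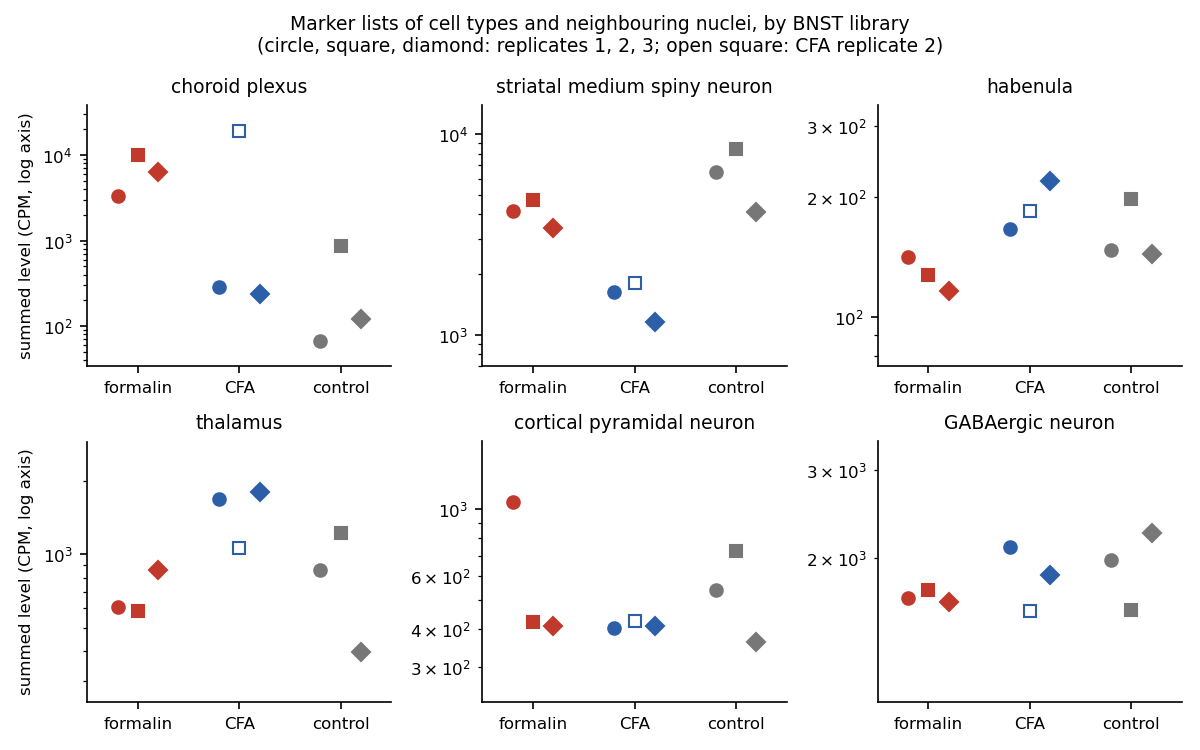
Summed level of 6 marker lists (CPM, log axis) in each BNST library, by group, with 1 point per library. The striatal sum is higher in all formalin libraries (3403 to 4675 CPM) than in the CFA libraries (1149 to 1807 CPM), the thalamic and habenular sums are lower, and the choroid plexus sum of CFA replicate 2 lies far above that of the other CFA libraries.

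Of the 18157 genes tested, 466 were called (2.57%), 323 of them higher (1.78%) and 143 lower (0.788%) after formalin than after CFA. The called changes ran from −3.68 to 4.32 on the log2 scale with a median size of 0.97, and 215 genes changed by more than 1, of which 157 were higher. The share of higher genes among the calls was 69.3%, and 61.5% when DESeq2's size factors replaced TMM. Over all tested genes the median log2 fold change was 0.03. The 3 formalin libraries lay wholly above or wholly below the 3 CFA libraries for 31.9% of all tested genes and for every called gene, so every called gene had groups that did not overlap.

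The number of calls depended on single libraries. Without CFA replicate 2 it was 1491 (8.04% of tested genes), with 993 higher (5.35%) and 498 lower (2.68%), and 424 of the 466 genes were among them. Leaving out a formalin library gave 40 calls (replicate 1), 15 (replicate 2) or 205 (replicate 3). The count was 45 when CFA replicate 1 was omitted and 67 when CFA replicate 3 was, and omitting a control library gave 259 (replicate 1), 477 (replicate 2) or 727 (replicate 3). In these 9 fits, 15 of the 466 genes were called every time (0.0826% of tested genes), 11 of them higher and 4 lower. No called gene named here turned its direction in any of these fits.

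**Figure D2:**
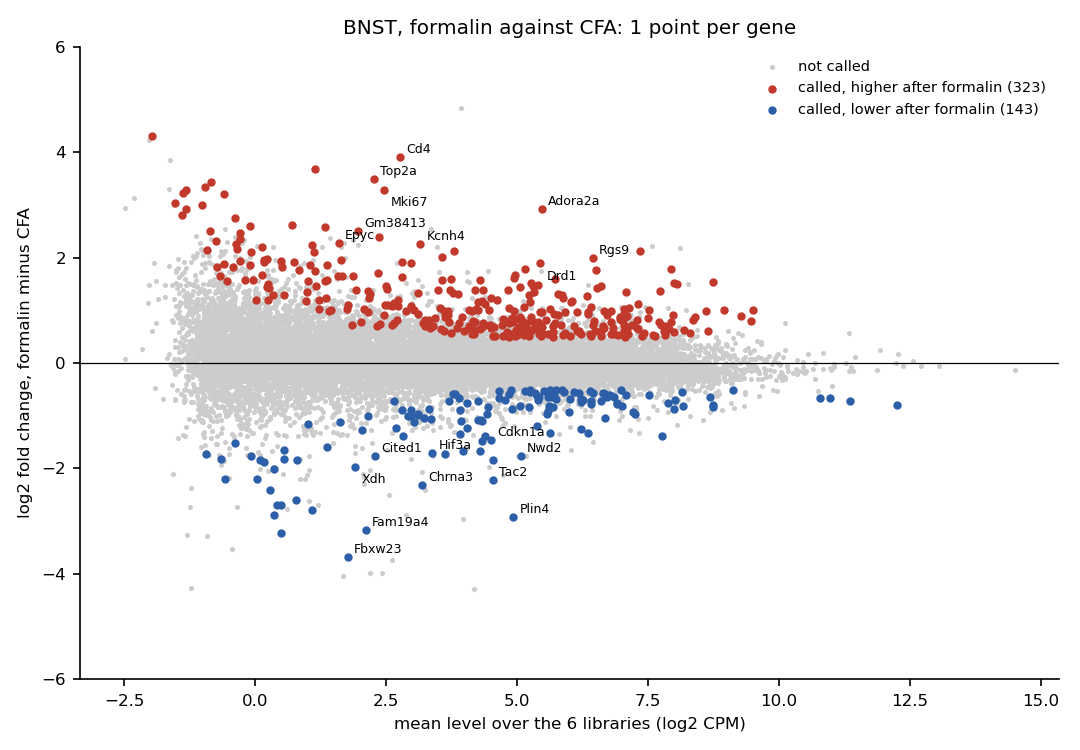
Log2 fold change, formalin minus CFA, against the mean level over the 6 libraries (log2 CPM), with 1 point per tested gene. The 323 genes called higher are red, the 143 called lower are blue, and the named points are among those with the largest changes.

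The 15 genes that stayed called whichever library was left out were singled out after their values were seen. Mki67 (chr7:135689784-135716361 in GRCm38), whose protein coats the chromosomes of dividing cells, was at 11.7, 9.81 and 8.56 CPM in the formalin libraries, against 1.26, 0.869 and 0.930 CPM in the CFA libraries and 10.3, 6.48 and 12.6 CPM in the controls. All formalin libraries lay far above all CFA libraries, and the controls spread around the formalin level. It differed by 3.29 on the log2 scale (SE 0.29, edgeR adjusted p = 0.0036). Top2a (chr11:98992943-99024189), the topoisomerase of replicating cells, was at 7.96, 9.81 and 8.65 CPM against 1.09, 0.818 and 0.441 CPM after CFA, a log2 fold change of 3.50 (SE 0.38, edgeR adjusted p = 0.0062).

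Kcnh4 (chr11:100740376-100759942), a voltage-gated potassium channel of the forebrain, was at 12.6, 17.8 and 13.6 CPM after formalin, against 3.43, 2.91 and 2.84 CPM after CFA and 15.9 to 25.4 CPM in the controls, a difference of 2.26 (SE 0.21, edgeR adjusted p = 0.0044). Itpka, a kinase of inositol trisphosphate that also bundles actin in dendritic spines, was at 68.0, 49.0 and 47.8 CPM after formalin and at 17.3, 18.2 and 12.3 CPM after CFA. Egr3, an activity-regulated transcription factor, was at 98.5, 74.1 and 65.4 CPM against 22.4, 29.6 and 26.4 CPM after CFA (log2 fold change 1.60, SE 0.18, edgeR adjusted p = 0.0081). All CFA libraries of these genes lay below all formalin and control libraries. Klf16, a transcription factor of the Krüppel-like family, had closely grouped values, 50.7, 48.8 and 49.4 CPM after formalin against 26.8, 27.8 and 26.9 CPM after CFA. Col11a2 (log2 fold change 1.19), a fibrillar collagen chain, Enpp6 (1.0), a phosphodiesterase of newly formed oligodendrocytes, and 3 transcripts without a known product, 1700047M11Rik (1.18), Gm38413 (2.51) and the processed pseudogene Gm3828 (2.62), complete the higher genes of this group.

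The 4 lower genes were Fbxw23, Sult1a1, Fabp7 and the long noncoding RNA 2900052N01Rik. Fabp7 (chr10:57784881-57788450), the brain fatty acid binding protein of astrocytes and radial glia, was at 24.6, 24.0 and 27.1 CPM after formalin, against 65.6, 49.7 and 57.4 CPM after CFA and 26.8 to 30.7 CPM in the controls, a log2 fold change of −1.19 (SE 0.12, edgeR adjusted p = 0.0044). 2900052N01Rik was at 41.4, 44.4 and 53.6 CPM against 124, 102 and 126 CPM after CFA, with the controls at 45.9 to 48.1 CPM. Fbxw23, annotated as a transcribed pseudogene of an F-box gene family, was at 0.442, 0.409 and 0.589 CPM after formalin and at 6.87, 6.70 and 5.39 CPM after CFA (log2 fold change −3.68, SE 0.38, edgeR adjusted p = 0.0053). As a member of a multigene family its reads can be shared with its near copies, so its level is uncertain.

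**Figure D3:**
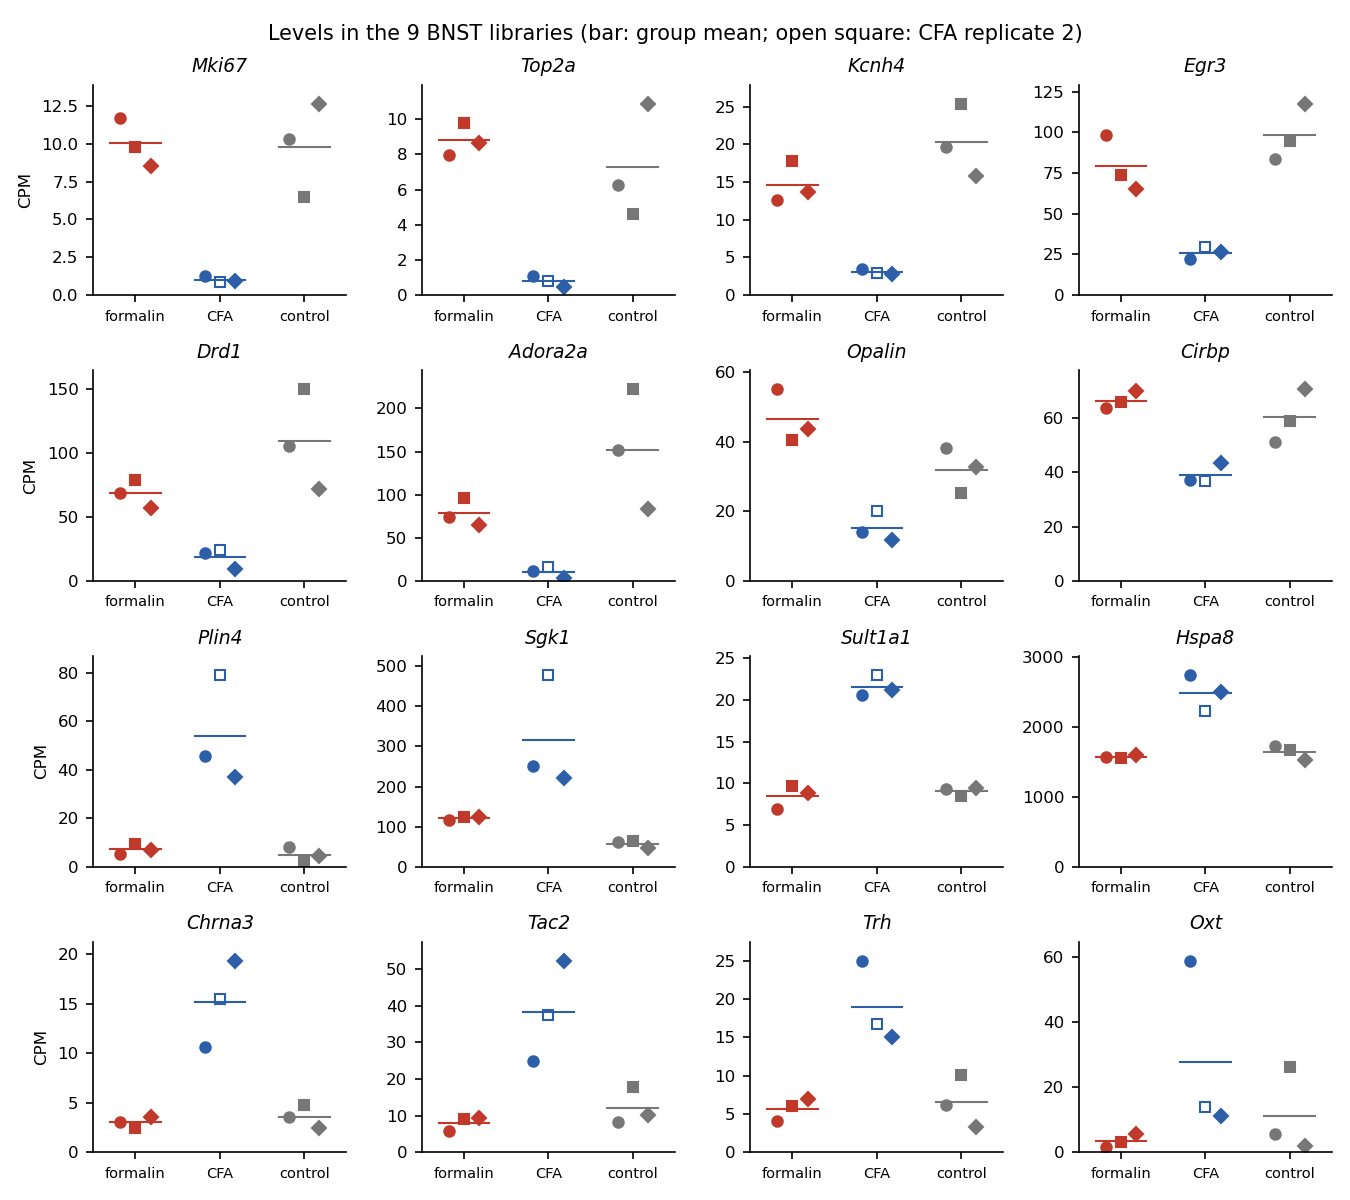
Level (CPM, linear axis from 0) of 16 genes in each of the 9 BNST libraries, by group, with 1 point per library and a bar at the group mean. The control libraries lie near the formalin libraries for Mki67, Top2a, Sult1a1 and Chrna3, and CFA replicate 1 alone carries the high CFA mean of Oxt.

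Genes of cell division formed a group in which every called member was higher after formalin. Of 20 markers of dividing cells, all tested, 6 were called higher and none lower, against 1.78% of all tested genes called higher. Besides Mki67 and Top2a these were Rrm2 (log2 fold change 1.64), a subunit of ribonucleotide reductase, Ccnb1 (1.86), the cyclin of mitotic entry, Bub1 (3.43), a kinase of the spindle checkpoint, and Prc1 (1.1), a microtubule bundler of the dividing cell's midzone. Their levels were low, with Bub1 at 0.815 to 1.33 CPM after formalin and 0 to 0.172 CPM after CFA and Ccnb1 at 1.09 to 1.69 CPM and 0.286 to 0.562 CPM. The list summed to 107, 111 and 108 CPM after formalin, against 77.3, 83.8 and 67.9 CPM after CFA and 77.7 to 116 CPM in the controls, and the median log2 fold change of its members was 0.88. The summed level of CFA replicate 2 was the nearest to the formalin libraries and still below them. The DNA clamp gene Pcna, also read outside of division, overlapped at 36.0 to 39.4 CPM after formalin and 37.5 to 46.4 CPM after CFA. The count of dividing-cell calls was 8 without CFA replicate 2, 9 without control replicate 3 and 2 without control replicate 1, any 1 of the formalin libraries, CFA replicate 1 or CFA replicate 3 (edgeR adjusted p up to 0.17).

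Markers of neuroblasts and the ventricular zone had 2 higher calls among 13 tested, against 1.78% of all tested genes called higher. Nes, the intermediate filament nestin of neural progenitors, was at 20.5, 17.7 and 15.3 CPM after formalin against 5.44, 7.82 and 4.65 CPM after CFA (log2 fold change 1.57, SE 0.24, edgeR adjusted p = 0.017), and Prom1, a membrane glycoprotein of progenitors and ependyma, differed by 1.08. For 9 of the 13 genes the formalin libraries lay above the CFA libraries, as for 17.3% of all genes. The list sums overlapped, at 641 to 705 CPM after formalin and 623 to 761 CPM after CFA. Its most abundant members, Tubb3 (−0.53, edgeR adjusted p = 0.16) and Tubb2b (−0.25, edgeR adjusted p = 0.31), had negative log2 fold changes and overlapping groups. Calls numbered 3 without CFA replicate 2 and 5 without control replicate 3. Those of the full fit were both lost without formalin replicate 1, formalin replicate 2, CFA replicate 1 or CFA replicate 3, and Prom1 also without formalin replicate 3, control replicate 1 or control replicate 2 (edgeR adjusted p up to 0.16). Since the ventricular wall and its choroid plexus entered the libraries unequally, the ependymal markers are given beside these values. They summed to 444 to 490 CPM after formalin and to 263, 430 and 172 CPM in CFA replicates 1, 2 and 3, and edgeR called none of 13 (3 at an unadjusted p under 0.05), or 4 without CFA replicate 2, while DESeq2 called 2. Their part in the calls was not tested.

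The list with the most called genes marks the medium spiny neurons of the striatum, the projection neurons that carry dopamine receptors and the phosphatase inhibitor DARPP-32. All 18 markers lay above the CFA libraries in all formalin libraries, as did 17.3% of all tested genes, and 14 of the 18 were called higher. The median log2 fold change of the list was 1.5. Drd1 (chr13:54051183-54055705), the dopamine D1 receptor, was at 68.9, 79.2 and 57.4 CPM after formalin, against 21.9, 24.0 and 9.55 CPM after CFA and 105, 150 and 72.3 CPM in the controls. Its log2 fold change was 1.89 (SE 0.38, edgeR adjusted p = 0.044). Adora2a (chr10:75316877-75334784), the adenosine receptor of indirect-pathway neurons, was at 74.5, 95.8 and 65.1 CPM against 12, 15.8 and 3.18 CPM after CFA, a log2 fold change of 2.93 (SE 0.59, edgeR adjusted p = 0.047). For both receptors the controls were the highest group, and formalin replicate 3 and CFA replicate 3 were the lowest of their groups.

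Drd2, the dopamine D2 receptor, differed by 1.47 and Penk, the precursor of enkephalin, by 1.38. Other called members serve the same receptor cascade, with Rgs9 (1.99), which ends G protein signals, Gng7 (1.51), a G protein subunit, Adcy5 (0.99), the main striatal adenylyl cyclase, and Pde10a (1.79), which degrades its product. The transcription factors Bcl11b (1.42) and Foxp1 (0.93), the orphan receptor Gpr6 (2.01), the phosphoprotein gene Arpp21 (1.5) and the anoctamin gene Ano3 (1.77) were called as well. The members not called were Ppp1r1b, which encodes DARPP-32, Tac1, Pde1b and Rasd2, at log2 fold changes of 0.71 to 1.5. Ppp1r1b was at 412, 551 and 405 CPM after formalin and at 113, 318 and 52.5 CPM after CFA, so CFA replicate 2 was between the formalin libraries and the other CFA libraries (edgeR adjusted p = 0.21, and 0.031 without CFA replicate 2). Without CFA replicate 2, 13 markers were called. The count was 4 without control replicate 1 or formalin replicate 3, and 0 when formalin replicate 1, formalin replicate 2, CFA replicate 1 or CFA replicate 3 was omitted (edgeR adjusted p up to 0.18). The summed level was 4123, 4675 and 3403 CPM after formalin, against 1638, 1807 and 1149 CPM after CFA and 4088 to 8405 CPM in the controls. Medium spiny neurons of the neighbouring striatum and expression within BNST neurons cannot be told apart in these libraries.

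Acetylcholine and monoamine receptors had calls in both directions. Among 9 tested genes of muscarinic receptors and acetylcholine handling, Chrm4 (log2 fold change 1.60) and Chrm1 (1.31), the M4 and M1 receptors, were called higher. None was called lower, and 1.78% of all tested genes were called higher. Of 8 adrenergic receptor genes only Adra2c, the α2C receptor, was called, higher by 1.11. Among 11 serotonin receptor genes only Htr1b was, higher by 0.51, with 25.6 to 28.9 CPM after formalin and 17.2 to 21.6 CPM after CFA. The medians of these lists were 0.14 and −0.03. The nicotinic subunit gene Chrna3 was lower after formalin, as described with the habenular markers. Of 14 GABA-A receptor subunit genes only Gabra3, which encodes the α3 subunit, was called, against 0.788% of all genes called lower. Gabra3 was at 72.5, 92.6 and 103 CPM against 167, 120 and 170 CPM after CFA (log2 fold change −0.77, edgeR adjusted p = 0.035). Among 15 ionotropic glutamate receptor genes only the kainate subunit gene Grik5 was called, higher by 0.54. The medians of these 2 lists were −0.37 and 0.33. These 6 calls (Chrm4, Chrm1, Adra2c, Htr1b, Gabra3 and Grik5) were each lost when formalin replicate 1 or 2 or CFA replicate 1 was omitted, those of Adra2c and Htr1b also without formalin replicate 3, those of Htr1b and Grik5 also without CFA replicate 2, all but that of Grik5 also without CFA replicate 3 and those of Chrm1, Adra2c, Gabra3 and Htr1b also without control replicate 1. Htr1b kept its call in none of the 9 fits, and Chrm1 was also lost without control replicate 2 (edgeR adjusted p up to 0.19).

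Ion channel genes had more higher than lower calls. Of 19 potassium and HCN channel genes, 4 were called higher and none lower, and of 15 voltage-gated sodium and calcium channel genes 2 were higher, against 1.78% of all genes called higher. Next to Kcnh4 the potassium channel genes were Kcnj4 (log2 fold change 1.48), an inward rectifier, Kcnq5 (1.03), which carries an M-type current, and Kcnip2 (0.92), an auxiliary protein of A-type channels. Kcnip2 was at 157, 147 and 109 CPM after formalin, against 78.2, 71.5 and 69.5 CPM after CFA and 182 to 192 CPM in the controls. The calcium channel genes were Cacna1e (0.82), of the R type, and Cacna1h (0.70), of the T type. The potassium and HCN list ran from −1.03 to 2.26 on the log2 scale with a median of 0.20, and the groups did not overlap for 7 genes higher and 3 lower after formalin, against 17.3% and 14.6% of all genes. The median of the sodium and calcium list was 0.16, against 0.03 over all genes. The potassium channel count was 5 and 6 without CFA replicate 2 and control replicate 3 and 1 without formalin replicate 1, formalin replicate 2, CFA replicate 1 or CFA replicate 3 (edgeR adjusted p up to 0.15). The sodium and calcium channel count was 3 without CFA replicate 2 or control replicate 3, 1 without control replicate 1 or formalin replicate 3 and 0 without the same 4 libraries.

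Immediate early genes, which neurons transcribe within minutes of activity, had 2 higher calls of 14, against 1.78% of all tested genes called higher. Besides Egr3 this was Egr1, at 178, 112 and 150 CPM after formalin against 61.8, 72.4 and 88.3 CPM after CFA (log2 fold change 0.99, edgeR adjusted p = 0.048, and 0.063 without CFA replicate 2). Fos, the most widely used activity marker, overlapped at 24.1, 9.92 and 26.4 CPM after formalin and 21.9, 28.8 and 35.1 CPM after CFA. Arc, an activity-regulated gene of synapses, was at 122, 53.5 and 70.7 CPM against 55.1, 52.7 and 60.2 CPM (log2 fold change 0.55, edgeR adjusted p = 0.36). Egr3 and Egr1 were also high in the controls, at 83.5 to 118 CPM and 141 to 223 CPM. Of the clock genes, Dbp (0.82) and Per3 (0.68) were higher, 2 of 15, and of the genes of synaptic vesicle release Cplx2 (0.89), a complexin, and Sv2c (0.55), a vesicle glycoprotein, 2 of 20, against the same 1.78% of all genes. Of these, only Egr3 stayed called whichever library was left out. The calls of the others were lost without formalin replicate 1, formalin replicate 2, CFA replicate 1 or CFA replicate 3, all but that of Cplx2 also without formalin replicate 3, those of Egr1, Dbp and Sv2c also without control replicate 1, those of Egr1 and Sv2c also without CFA replicate 2 and that of Egr1 also without control replicate 2 (edgeR adjusted p up to 0.17).

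The habenula is a neighbour of the thalamus. Of 12 tested habenular markers, 2 were called lower after formalin and none higher, against 0.788% of all genes called lower, and for 8 the formalin libraries lay below the CFA libraries, as for 14.6% of all genes. Chrna3 (chr9:55010111-55026562), the α3 nicotinic receptor subunit, was at 3.03, 2.51 and 3.53 CPM after formalin, against 10.6, 15.4 and 19.3 CPM after CFA and 2.42 to 4.76 CPM in the controls. Its log2 fold change was −2.31 (SE 0.29, edgeR adjusted p = 0.0090). Tac2 (chr10:127724478-127731768), the precursor of neurokinin B, was at 5.94, 9.05 and 9.42 CPM against 24.9, 37.4 and 52.2 CPM after CFA (log2 fold change −2.23, SE 0.36, edgeR adjusted p = 0.024). CFA replicate 3 was the highest library for both genes. Pou4f1, the transcription factor that defines medial habenular neurons, was at 0.0632, 0.175 and 1.27 CPM after formalin and at 4.69, 9.25 and 12.1 CPM after CFA, and Chrnb3, a β3 nicotinic subunit, had the largest difference of the list at −4.03. Neither was called (edgeR adjusted p = 0.11 for each). For 1 marker, Lmo3, the formalin libraries lay above the CFA libraries, as for 17.3% of all genes. Lmo3 was at 95.2, 77.8 and 63.4 CPM after formalin and at 59.1, 47.8 and 40.4 CPM after CFA, and was not called (log2 fold change 0.68, edgeR adjusted p = 0.068). The habenular count was 3 without CFA replicate 2, 4 without control replicate 2 or 3, 1 without formalin replicate 3 or CFA replicate 3 and 0 without formalin replicate 1 or 2 (edgeR adjusted p up to 0.12).

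No thalamic marker was called by edgeR (4 of 10 at an unadjusted p under 0.05), against 2 with DESeq2, 4 in the model of 18 libraries, 1 without CFA replicate 2 and 3 without control replicate 3. For 9 of 10 the formalin libraries lay below the CFA libraries, as for 14.6% of all genes. The thalamic markers summed to 606, 584 and 864 CPM after formalin, against 1694, 1067 and 1802 CPM after CFA and 398 to 1221 CPM in the controls. Of 11 hypothalamic genes, only Trh, the precursor of thyrotropin-releasing hormone, was called lower, against 0.788% of all genes called lower. Trh was at 4.04, 6.01 and 6.97 CPM after formalin against 25, 16.8 and 15.1 CPM after CFA (log2 fold change −1.73, SE 0.38, edgeR adjusted p = 0.048, and up to 0.17 without control replicate 1, CFA replicate 1, CFA replicate 3 or any formalin library, where its call was lost). Oxt (chr2:130576173-130577054), which encodes oxytocin, was at 1.71, 3.21 and 5.66 CPM after formalin, against 58.7, 13.8 and 11.1 CPM after CFA and 5.73, 26.0 and 1.97 CPM in the controls. Formalin and CFA did not overlap, CFA replicate 1 held several times the level of the other CFA libraries, and control replicate 2 was above CFA replicates 2 and 3. Oxt was not called (log2 fold change −2.95, SE 1.1, edgeR adjusted p = 0.17), although DESeq2 gave an adjusted p of 0.044 and the model of all 18 libraries 0.033. Avp, the precursor of vasopressin, showed the same order, with 1.07, 1.69 and 2.40 CPM after formalin and 25.6, 3.73 and 9.45 CPM after CFA (edgeR adjusted p = 0.11). How far habenular, thalamic and hypothalamic tissue in the dissection bears on these values was not tested.

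Of the genes that glucocorticoids induce, 9 of 16 tested were called lower after formalin than after CFA and none higher, against 0.788% of all genes called lower. This list, like the others, was chosen with earlier results of these data known, so the count is a description. Glucocorticoids, the adrenal hormones released under stress, act through a receptor that binds DNA, and genes such as Fkbp5, Sgk1 and Tsc22d3 follow the hormone in many tissues. The median log2 fold change of the list was −0.84. The formalin libraries lay below the CFA libraries for 12 of the 16, as for 14.6% of all genes. Sult1a1 (chr7:126672865-126676432), a sulfotransferase, was at 6.88, 9.69 and 8.83 CPM after formalin, against 20.6, 23.0 and 21.3 CPM after CFA and 8.44 to 9.44 CPM in the controls. Its log2 fold change was −1.35 (SE 0.14, edgeR adjusted p = 0.0053), and it stayed called whichever library was left out. Plin4 (chr17:56100591-56109803), a coat protein of lipid droplets, was at 5.18, 9.34 and 6.75 CPM against 45.6, 78.9 and 37.1 CPM after CFA (log2 fold change −2.92, SE 0.46, edgeR adjusted p = 0.025).

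Sgk1 (chr10:21882184-21999903), a serum- and glucocorticoid-induced kinase, was at 117, 123 and 123 CPM after formalin, against 250, 478 and 220 CPM after CFA and 62.7, 63.1 and 45.4 CPM in the controls (log2 fold change −1.39, SE 0.28, edgeR adjusted p = 0.040). The formalin libraries thus lay between the other groups for Sgk1. Its change was −0.99 without CFA replicate 2, which held the highest level of Sgk1, Plin4, Cdkn1a and Nfkbia. Fkbp5, a co-chaperone of the receptor, differed by −0.63 and Tsc22d3, a leucine zipper protein also known as GILZ, by −1.04. Hif3a (−1.71), a hypoxia-inducible factor subunit, Cdkn1a (−1.46), the cell cycle inhibitor p21, Ddit4 (−0.83), an inhibitor of mTOR signalling, and Nfkbia (−0.84), the inhibitor of NF-κB, were the other calls. The clock gene Per1, also a target of the hormone, was at 80.0, 79.7 and 89.6 CPM after formalin and 71.0, 77.7 and 75.7 CPM after CFA (edgeR adjusted p = 0.39). The receptor gene Nr3c1 itself was at 135 to 141 CPM and 145 to 152 CPM. The count was 9 without CFA replicate 2, 6 without control replicate 1, 3 when formalin replicate 3, CFA replicate 1 or CFA replicate 3 was omitted, 2 in the absence of formalin replicate 1 and 1 in that of formalin replicate 2 (edgeR adjusted p up to 0.18). The list summed to 755 to 837 CPM after formalin, 1102 to 1560 CPM after CFA and 680 to 747 CPM in the controls.

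The promoters of these genes were read for the DNA element of the receptor, an inverted repeat spelled here as AGAACA and TGTTCT with 3 free bases between them, and for its single arm AGAACA, on both strands. Sequences are 300-base windows around the gene start from RefSeq (GRCm38.p6), and 16 of the 17 list members had one. None held the inverted repeat, which 0.0037% of all 27025 promoters hold, and 2 held the single arm (12.5%, against 12.6% of the promoters of tested genes and 19% of all promoters). They are shown because they are the matches among the called genes, with the arm in capitals, Sgk1 at chr10:21881934-21882233 on the plus strand and Sult1a1 at chr7:126676369-126676668 on the minus strand.
Sgk1: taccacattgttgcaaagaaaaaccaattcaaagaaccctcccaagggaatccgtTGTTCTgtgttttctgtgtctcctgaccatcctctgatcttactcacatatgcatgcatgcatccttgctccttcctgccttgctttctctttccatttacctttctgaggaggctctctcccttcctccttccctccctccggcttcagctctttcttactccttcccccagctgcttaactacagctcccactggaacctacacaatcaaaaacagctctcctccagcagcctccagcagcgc
Sult1a1: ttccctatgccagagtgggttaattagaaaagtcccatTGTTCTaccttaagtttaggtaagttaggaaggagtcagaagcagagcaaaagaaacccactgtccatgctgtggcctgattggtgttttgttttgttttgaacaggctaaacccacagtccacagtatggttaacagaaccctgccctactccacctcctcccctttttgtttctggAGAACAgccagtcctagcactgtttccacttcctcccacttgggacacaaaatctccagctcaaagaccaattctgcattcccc
The arm occurs once in the Sgk1 window and in both orientations in the Sult1a1 window. These are matches of letters in a short window and not sites, and elements further from the start were not read.

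Heat shock genes encode chaperones, which keep proteins folded. Of 12 tested, 5 were called lower after formalin and none higher, against 0.788% of all genes called lower, and 8 lay below the CFA libraries in all formalin libraries, as did 14.6% of all genes. Hspa8 (chr9:40800984-40810087), the constitutive HSP70 chaperone, was at 1565, 1555 and 1588 CPM after formalin, against 2735, 2228 and 2492 CPM after CFA and 1521 to 1728 CPM in the controls. Its log2 fold change was −0.66 (SE 0.11, edgeR adjusted p = 0.019). Hsp90aa1, the inducible HSP90, was at 1391, 1455 and 1256 CPM against 2478, 2098 and 1917 CPM after CFA, and Hsph1, an exchange factor of HSP70, at 320, 337 and 303 CPM against 595, 448 and 465 CPM. The control libraries also lay below all CFA libraries for these chaperones, and CFA replicate 1 was the highest library. Dnajb1 (−0.57), a co-chaperone, and Hspe1 (−0.65), the mitochondrial chaperonin lid, were the other calls, and Hspd1, the partner of Hspe1, had an edgeR adjusted p of 0.028 but missed the minimum change at −0.44. The list summed to 3930, 4221 and 3960 CPM after formalin and to 6942, 6241 and 5893 CPM after CFA. With CFA replicate 2 omitted the count was 6, with formalin replicate 3 omitted 2, and with formalin replicate 1 or 2 or CFA replicate 1 or 3 omitted 0 (edgeR adjusted p up to 0.13). Cirbp and Rbm3, RNA-binding proteins that rise when cells cool, went the other way. Cirbp (chr10:80165985-80172786) was at 63.7, 65.8 and 70.0 CPM after formalin, against 37.0, 36.8 and 43.4 CPM after CFA and 51.2 to 70.6 CPM in the controls (log2 fold change 0.77, SE 0.12, edgeR adjusted p = 0.018), and Rbm3 differed by 0.70. Those of the full fit were both lost without any 1 of the formalin libraries or CFA replicate 1, and that of Rbm3 also without CFA replicate 3 (edgeR adjusted p up to 0.17).

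Heat shock promoters are known for repeats of GAA in alternating orientation, the element of heat shock factor. The element with a pair of repeats, GAA and TTC with 2 free bases between them, was in 6 of the 9 list promoters that the RefSeq table held (66.7%) against 5.63% of the promoters of tested genes and 7.95% of all promoters. These 6 were Hspa1a, Hspa1b, Hspb1, Hsph1, Hspe1 and Bag3, of which only Hsph1 and Hspe1 were called. The windows of Hspa1a and Hspa1b are nearly identical in sequence. The longer element, which adds 2 free bases and a further GAA and so contains the shorter, was in 2 (22.2%) against 0.4% of the promoters of tested genes and 0.529% of all promoters. Those 2 belong to the called genes Hspe1, at chr1:55087898-55088197 on the plus strand, and Hsph1, at chr5:149636287-149636586 on the minus strand, and are shown with the element in capitals.
Hspe1: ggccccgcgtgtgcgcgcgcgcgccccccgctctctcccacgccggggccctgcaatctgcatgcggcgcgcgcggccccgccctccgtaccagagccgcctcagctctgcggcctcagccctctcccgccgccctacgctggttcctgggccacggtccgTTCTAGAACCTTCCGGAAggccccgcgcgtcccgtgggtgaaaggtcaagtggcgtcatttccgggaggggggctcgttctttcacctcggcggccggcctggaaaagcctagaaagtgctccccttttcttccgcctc
Hsph1: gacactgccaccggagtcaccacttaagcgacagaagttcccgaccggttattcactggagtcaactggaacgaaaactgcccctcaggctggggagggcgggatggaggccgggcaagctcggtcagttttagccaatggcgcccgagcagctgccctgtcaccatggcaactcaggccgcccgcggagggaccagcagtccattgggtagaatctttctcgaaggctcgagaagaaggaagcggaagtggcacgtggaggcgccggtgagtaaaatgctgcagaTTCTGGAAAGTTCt
The window of Dnajb1, also called, held neither spelling. Hspa8, Hsp90aa1 and Hsf1 had no entry in the RefSeq table, so their promoters were not read. A match is a description of the sequence only.

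**Figure D4:**
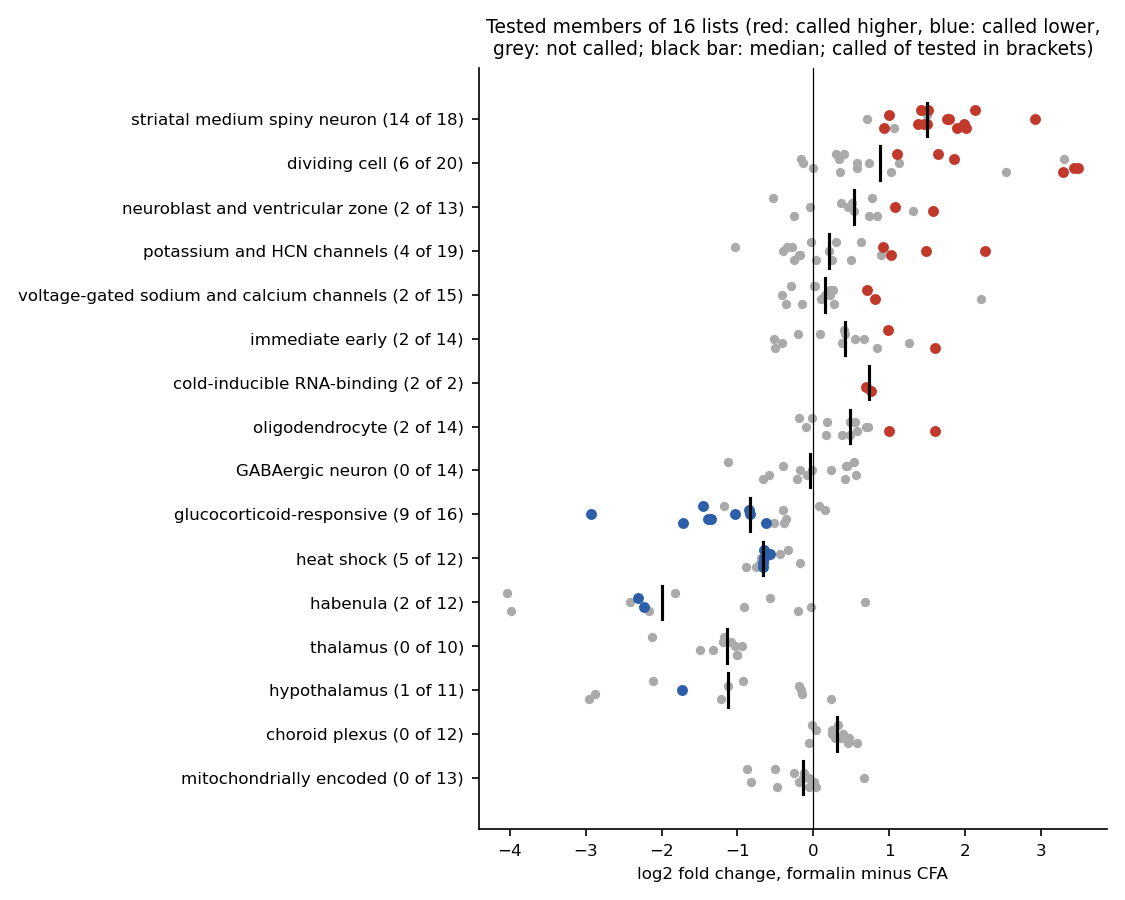
Log2 fold change, formalin minus CFA, of every tested member of 16 lists, with a black bar at the median and the number called of those tested in brackets. Striatal and dividing-cell markers lie to the right of 0 with medians of 1.5 and 0.88, and glucocorticoid-responsive, heat shock and habenular genes to the left with medians of −0.84, −0.66 and −1.99.

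Of 14 oligodendrocyte genes, Opalin, a membrane protein of myelinating cells, and Enpp6 were called higher, against 1.78% of all genes, and 9 had formalin wholly above CFA, as did 17.3% of all genes. The oligodendrocyte count was 5 without CFA replicate 2, 1 when formalin replicate 1 or 2 or CFA replicate 1 was omitted, and 6 with DESeq2. Opalin (chr19:41061710-41077113) was at 54.9, 40.6 and 43.6 CPM after formalin, against 13.9, 20.1 and 11.7 CPM after CFA and 25.1 to 38.0 CPM in the controls (log2 fold change 1.61, SE 0.23, edgeR adjusted p = 0.015). Among 13 astrocyte genes, edgeR called only Gjb6, the gap junction protein connexin 30, against 0.788% of all tested genes called lower. Gjb6 was lower at 42.4, 38.2 and 52.4 CPM against 115, 83.1 and 119 CPM after CFA (log2 fold change −1.25). The list median was −0.05, and its sums overlapped, at 5380 to 6172 CPM after formalin and 5506 to 5958 CPM after CFA. Of 12 tested mural cell and fibroblast genes, Acta2 (1.47), the actin of smooth muscle, and Pdgfrb (0.70), a receptor of pericytes, were called higher. In the collagen list of 15 genes only Col5a2 (1.1) was, against 1.78% of all tested genes called higher. The calls of Opalin, Gjb6, Acta2, Pdgfrb and Col5a2 were lost when formalin replicate 1 or 2 or CFA replicate 1 was omitted, all but that of Opalin also without formalin replicate 3 or CFA replicate 3, those of Acta2, Pdgfrb and Col5a2 also without control replicate 1 and that of Pdgfrb also without control replicate 2 (edgeR adjusted p up to 0.17). With edgeR no microglial gene of 17 tested was called (9 at an unadjusted p under 0.05), nor any of 14 GABAergic (2), 12 cortical (5), 12 choroid plexus (0) or 13 mitochondrially encoded genes (1). DESeq2 called 3 microglial and 2 cortical genes and none of the other lists, and the model of 18 libraries called 4 microglial and 2 cortical genes. In the edgeR fits without CFA replicate 2 or control replicate 3, 1 microglial and 1 GABAergic gene were called, 1 cortical gene was called without control replicate 3, and 1 mitochondrially encoded gene without CFA replicate 1. Without CFA replicate 2, 6 choroid plexus genes were called, with a list median of 4.86 against 0.31 in all libraries. The cytokine genes Il1b, Tnf, Il6 and Ccl2 were under 1 CPM in all 9 libraries. Crh, corticotropin-releasing hormone of the BNST, was at 6.13, 5.02 and 6.93 CPM after formalin and at 11.7, 10.7 and 11.4 CPM after CFA and was not called (log2 fold change −0.90, edgeR adjusted p = 0.089).

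Several of the genes with the largest changes belong to none of these lists. Cd4 (chr6:124864692-124888221), best known as the co-receptor of helper T cells, had the largest called change of the genes named here, with 10.9, 16.1 and 11.2 CPM after formalin against 0.801, 1.33 and 0.392 CPM after CFA and 11.7 to 35.6 CPM in the controls. The difference was 3.91 on the log2 scale (SE 0.52, edgeR adjusted p = 0.015). The T cell genes Cd3e, Cd3d and Cd8a were under 0.5 CPM in all 9 libraries, and the pan-leukocyte gene Ptprc was at 4.21 to 4.67 CPM after formalin and 3.67 to 4.45 CPM after CFA. Epyc (2.28), a small proteoglycan, Krt9 (1.92), a keratin, Gm19410 (2.13), Ptprv (2.38) and Gm49702 (1.91) were also among the 15 largest higher changes. Exons of Epyc share 40.6% of their bases with a gene on the opposite strand, and the strand setting of the counting is not given in the sources used here, so its reads are uncertain.

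On the lower side, Fam19a4, a secreted chemokine-like protein, was at 0.695, 0.817 and 1.04 CPM after formalin and at 8.87, 5.32 and 9.25 CPM after CFA (log2 fold change −3.17). Xdh (−1.97), xanthine dehydrogenase of purine breakdown, Fbln5 (−1.85), an elastic fibre protein, Cited1 (−1.76), a transcriptional co-activator, Nwd2 (−1.77), Scube1 (−1.67), a secreted EGF-repeat protein, Ankrd34c (−1.49) and the unassigned transcript Gm19439 (−1.67) completed the 15 largest lower changes with the glucocorticoid, habenular and hypothalamic genes above. Of the 30 largest changes, 5 were called whichever library was left out (Mki67, Top2a, Gm38413, Kcnh4 and Fbxw23). Of the other 25, 22 lost their call when formalin replicate 1 was omitted, 25 with replicate 2 and 15 with replicate 3 of that group omitted. For the CFA libraries these numbers were 18 (replicate 1), 1 (replicate 2) and 18 (replicate 3), and for the controls 9 (replicate 1), 2 (replicate 2) and 0 (replicate 3) (edgeR adjusted p up to 0.17).

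The control libraries, which the contrast did not compare, lay nearer to formalin than to CFA for 443 of the 466 called genes (95.1%), and for 62.8% of all tested genes. Of the 323 genes higher after formalin, the control mean was above formalin for 218, between the groups for 104 and below CFA for 1. Of the 143 lower genes, it was below formalin for 53, between for 90 and above CFA for none. With the same 9 libraries, edgeR called 1 gene, lower after formalin, between formalin and control (0.00551%, with 2136 at an unadjusted p under 0.05) and 1352 between CFA and control (7.45%), 447 higher (2.46%) and 905 lower (4.98%) after CFA. Among the glucocorticoid-responsive genes, 0 of 16 were called between formalin and control and 11 were called higher after CFA than in control. These comparisons share their libraries with the one between formalin and CFA.

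The same contrast in the mPFC gave 552 calls (3.15%) in its own 9 libraries, 248 higher (1.41%) and 304 lower (1.73%). Of the 466 genes called in the BNST, 430 were tested there and 52 were called, 47 in the same direction (10.1% of the BNST calls and 8.51% of the mPFC calls) and 5 in the opposite one. Both regions came from the same brains, so these counts are not independent. Of these 47 genes 26 were lower in both regions, among them Fbxw23 (−3.68 in the BNST and −3.26 in the mPFC), Plin4 (−2.92 and −3.26), Xdh (−1.97 and −2.37), Hif3a (−1.71 and −1.62), Sult1a1 (−1.35 and −1.21), Sgk1 (−1.39 and −0.96), Tsc22d3 (−1.04 and −0.90) and Fkbp5 (−0.63 and −1.15). The 21 genes higher in both included Opalin (1.61 and 1.46), Dbp (0.82 and 1.01), Cirbp (0.77 and 0.59) and Rbm3 (0.70 and 0.72). In the mPFC, 9 glucocorticoid-responsive genes, 3 heat shock genes and no habenular gene were lower.

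The difference between the regions was tested in a model of all 18 libraries. It was called for 792 of 18994 genes (4.17%), and for 237 of the 466 BNST calls (50.9%), 173 of the higher and 64 of the lower ones. The BNST calls were chosen by the BNST difference, which is itself part of the tested quantity. Their share of region-difference calls therefore cannot be set against that of all genes. Of the striatal markers 10 of 18 had such a call, as had 3 of the 12 habenular markers, 5 of the potassium and HCN channel genes and none of the glucocorticoid-responsive genes. Drd1 differed by 1.89 in the BNST and by −0.14 in the mPFC, Chrna3 by −2.31 and −0.40, and Mki67 by 3.29 and 0.06. Pairs of BNST replicates differed more than pairs of mPFC replicates (chi-square divided by its degrees of freedom, 8.02 to 78.5 in the BNST and 3.8 to 10.8 in the mPFC), and this model shares 1 estimate of the spread between the regions. The count of 792 was 1502 without BNST CFA replicate 2. It was 434 and 505 without BNST formalin replicate 2 and BNST CFA replicate 1, 521 and 425 without mPFC formalin replicates 1 and 3, and 518 and 519 without mPFC CFA replicates 1 and 2.

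**Figure D5:**
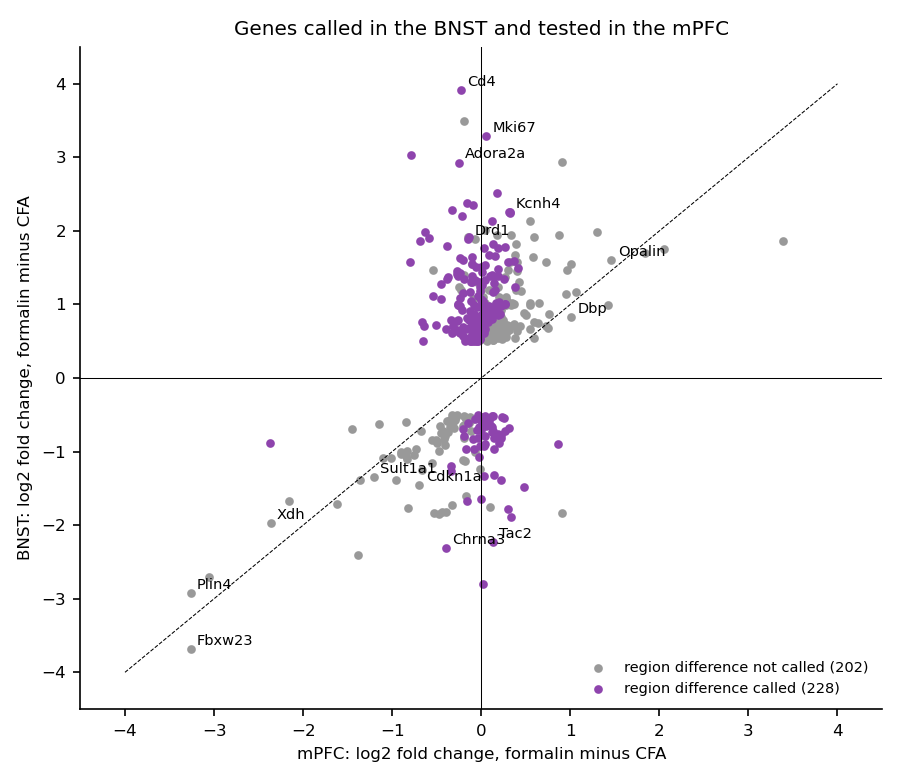
Log2 fold change, formalin minus CFA, in the BNST against that in the mPFC, for the 430 genes called in the BNST and tested in the mPFC. Plin4, Fbxw23, Xdh and Sult1a1 lie near the line of equal change, whereas Cd4, Mki67, Adora2a and Kcnh4 lie high in the BNST and near 0 in the mPFC.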

How the data were processed

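RNA from dissected BNST and mPFC was sequenced as poly(A) libraries in 150-base read pairs. The authors trimmed the reads with Trimmomatic 0.39, aligned them with HISAT2 2.2.1 to GRCm38 and deposited whole-number counts per gene from featureCounts 2.0.1. The strand setting and gene annotation release are not given in the sources used here. The table held 55401 genes, 260 of them without a symbol.

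Counts were fitted as deposited with edgeR 4.0.16 in R 4.3.3 (robust quasi-likelihood, TMM factors, filterByExpr with a minimum count of 10 and a minimum total of 15) over the 9 BNST libraries, which left 6 residual degrees of freedom. The filter kept 18157 genes with 99.8% of the counts. Genes were called at an adjusted p (Benjamini-Hochberg, all tested genes) under 0.05 with a log2 fold change beyond 0.5 in size. The difference between regions came from 1 model of 18 libraries. For genes with many reads counting error is small, and the spread between libraries limits precision. For genes with few reads, such as Bub1 after CFA (0 to 0.172 CPM), counting error adds to this spread. The study's methods give 3 brains per group. The p-values of the BNST fit rest on a spread estimated over its 9 libraries, controls included.

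Named genes were the 15 largest called changes in each direction among genes with a symbol whose higher group averaged 5 CPM or more, 6 genes fixed by name (Oxt, Drd1, Drd2, Chrna3, Chrm4 and Adora2a) and, of each of 47 gene lists, up to 5 called and 3 uncalled members, while other list members could be named with their values. The 15 genes called with every library left out, the mitochondrial ribosomal RNAs and the lymphocyte genes were chosen after their values were seen. Members and lists were chosen with earlier results of these data known. Sequencing lanes came from column names of the study's tables, matched to libraries by equal counts over 367 genes. Alternatives were limma-voom (limma 3.58.1), DESeq2 1.42.0 and its size factors, glmTreat, no fold minimum, other filters, other sets of libraries, a replicate block and each library left out. The values of 1 gene that the rule names are not reported here.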

Additional observations from a re-analysis of the deposited data

Results flagged for a closer look

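For 49 of the genes named in this report the formalin minus CFA difference was called as unequal between the BNST and the mPFC by the edgeR test of the difference itself. Over all tested genes this test called 792 of 18994 (4.17%). Many of the 49 were named because they were called within the BNST, so their number is not a share of all genes. The value given for each gene is the BNST log2 fold change minus the mPFC log2 fold change. Both regions share 1 estimate of the spread in this model, although BNST replicates varied more.

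Among genes of medium spiny neurons and their receptors these were Adora2a (3.12), Drd1 (1.99), Rgs9 (2.58), Pde10a (2.13), Ano3 (1.69), Bcl11b (1.65), Gng7 (1.47), Adcy5 (1.21), Arpp21 (1.04), Pde1b (1.0), Chrm4 (1.18), Chrm1 (1.29), Adra2c (1.61) and Htr1b (1.11). Pde1b was not called within the BNST. Ion channel and receptor subunit genes were Kcnh4 (1.9), Kcnj4 (1.25), Kcnip2 (1.0), Kcnq5 (0.79), Cacna1h (1.31), Cacna1e (0.85) and Gabra3 (−1.0). Activity-regulated and synaptic genes were Egr3 (1.76), Egr1 (1.18), Arc (1.51), Itpka (1.48) and Cplx2 (0.81). Arc was not called within the BNST.

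The dividing-cell genes Mki67 (3.20) and Rrm2 (1.71) differed as well. Genes with a negative value, lower after formalin in the BNST relative to the mPFC, were Fam19a4 (−3.32), Tac2 (−2.39), Nwd2 (−2.12), Ankrd34c (−2.01), Chrna3 (−1.95), Scube1 (−1.55), 2900052N01Rik (−1.41), mt-Rnr2 (−1.02), mt-Rnr1 (−0.90), Fabp7 (−0.89) and Hsp90aa1 (−0.68). The remaining genes were Cd4 (4.10), Gm3828 (2.89), Epyc (2.57), Ptprv (2.51), Gm49702 (2.46), Gm38413 (2.30), Gm19410 (1.962), Col11a2 (1.0), Per3 (0.77) and Klf16 (0.62).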

How the results depend on the processing

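Of 18157 genes 466 were called. The count was 24 when glmTreat tested against the fold minimum, 979 with DESeq2, 1305 in the model of 18 libraries, 57 in the 6 BNST libraries of lane 2 and 15 to 1491 with 1 library left out, and it stayed within 1.5 times with limma-voom (460), DESeq2's size factors (470), no fold minimum (584), other filters (580 and 431) and the 6 compared libraries alone (600). With the replicate number as a block it was 252, of which 226 were among the 466. Same-numbered formalin and CFA libraries correlated in their deviations from the group means at 0.22, 0.34 and 0.06. Differently numbered pairs of these groups ranged from −0.26 to 0.16. Same-numbered controls correlated with formalin at −0.04, −0.03 and −0.21 and with CFA at 0.14, 0.04 and −0.07. Among the CFA libraries, each formalin library correlated best with that of its own number. CFA replicate 3, however, correlated more with formalin replicate 1 (0.16). The labels give only the number, and whether same-numbered samples share a batch was not tested. The difference between regions was called for 792 genes, for 768 with the replicate block and for 425 to 1502 with 1 library left out. Ttr, a choroid plexus gene that was not called, was at −0.06 and changed sign with limma-voom (2.85), in lane 2 (0.24), under the block (3.66) and with 1 library left out (−0.64 to 5.26). Of the 89 called genes named, none changed sign, and 87 were called by DESeq2, 22 in lane 2 and 63 under the block. With 3 libraries a group, the calls measure these libraries, and the causes of the changes in count were not tested.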

Other observations

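Both mitochondrial ribosomal RNAs, which a poly(A) selection takes up only in part, were called lower after formalin and were chosen after their values were seen. mt-Rnr2, the large ribosomal RNA, was at 3570, 3441 and 3713 CPM in the formalin libraries, against 7427, 5842 and 5392 CPM in the CFA libraries and 3217 to 3693 CPM in the controls. Its log2 fold change was −0.80 (edgeR adjusted p = 0.022). mt-Rnr1, the small ribosomal RNA, was at 1967, 1942 and 2012 CPM against 3967, 3117 and 2707 CPM after CFA (−0.73, edgeR adjusted p = 0.029). Of the 13 mitochondrially encoded protein genes edgeR called none (1 at an unadjusted p under 0.05) and DESeq2 none, with a median of −0.13. In the mPFC the changes were 0.18 for mt-Rnr2 and 0.13 for mt-Rnr1.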
